A study of Pararge aegeria with 4 samples.

Results

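The miRNAs of the miR-2700 series were followed in ovaries of the Speckled Wood butterfly, Pararge aegeria. They are the precursors whose miRNA number is 27 followed by a further pair of digits, and they were found by name. The exception is miR-2763, which the St Hubert counts name B-0401/C-0173 and pair with that number, while the Zonza counts name it C-0173 with the same products. Of the 90 precursors listed for at least 1 of the small RNA libraries, 7 belong to the series: Pae-miR-2755, Pae-miR-2756, Pae-miR-2763, Pae-miR-2765, Pae-miR-2766, Pae-miR-2767 and Pae-miR-2796, given below without the species prefix. The Zonza library lists all 7 among 81 precursors, and the St Hubert library, whose list starts at a higher count, lists 5 among 67. Zonza is a recently founded laboratory stock from Corsica and St Hubert an older laboratory stock from the south of Belgium. In both, mated females were killed at the peak of egg production and the ovaries were freed of fat and other attached tissue. The study used 2 females per population and 1 small RNA library stands for each population, so the spread between females or between libraries cannot be seen, and no difference between the libraries below has a replicate check. Population, age of the stock and library cannot be told apart.

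A miRNA is cut from a hairpin transcript as a short duplex, and as a rule 1 strand is loaded into an Argonaute protein while the other is lost. Bases 2 to 8 of the loaded strand, the seed, do most of the pairing with target mRNAs, so miRNAs with the same seed can share targets. The numbers in miRNA names follow the order in which sequences were registered, not descent. The label of the series as restricted to insects is therefore a matter of annotation, which read counts do not test. miR-2763 is known from the moths Bombyx mori and Manduca sexta. In the honeybee, miR-2796 lies in an intron of the phospholipase C epsilon gene and is known from the brain.

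The products from the arm with more reads are shown because they are what the counts measure. They are printed 5′ to 3′ as deposited, with the seed in capitals, and the name gives the arm of the hairpin (5p or 3p).
miR-2755-3p: cACCCUGUcagaccauacuuguu
miR-2756-5p: aCCCUGUAgcugcuuaggggcg
miR-2763-3p: aUAUUAUGcucauuacuuuggau
miR-2765-5p: uGGUAACUccaccaccguuggc
miR-2766-3p: uCAGUCUUgucgaauggugg
miR-2767-5p: cAAGUAAAucucgugcggcuug
miR-2796-3p: gUAGGCCGgcggaaacuacuugc
The 7 products carry 7 different seeds, so the series is not a seed family. The longest run of bases shared by any pair of them is 7, which miR-2755-3p and miR-2756-5p share as the letters ACCCUGU at different positions. No product occurs whole in another of the 90 precursors, and the longest stretch of one found in another precursor is 9 bases, so no near-identical copy is among the listed hairpins.

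The seed of miR-2755-3p was shared with miR-993-5p and with the 5′ product of miR-10a, 2 related miRNAs encoded in the insect Hox cluster. Capitals again mark the seed.
miR-2755-3p: cACCCUGUcagaccauacuuguu
miR-993-5p: uACCCUGUagauccgggcuuuu
miR-10a-5p: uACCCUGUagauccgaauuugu
Outside the seed, miR-2755-3p does not follow the other 2, and it comes from the 3′ arm where they come from the 5′ arm. miR-2756-5p holds the same 7 letters from its first base, so its own seed, CCCUGUA, is the same stretch shifted by 1 base. Among all 90 precursors these were the only ones whose products held the seed of a member's abundant product, in place or shifted by 1 base. Seeds on the minor arms of the members were not searched.

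Abundance within the series ran over 10312 to 21 reads in Zonza and 4440 to 27 reads in St Hubert, and the 5 members listed in both libraries stood in the same order in each. A share is given as a percentage of all miRNA reads listed for a library, of which there were 1049925 in Zonza and 373413 in St Hubert, with a 95% Wilson interval that covers counting error only. miR-2755 was the most abundant, with 10312 reads in Zonza (0.982%, 0.963% to 1.00%) and 4440 in St Hubert (1.19%, 1.15% to 1.22%). It ranked 4 of 81 in Zonza, between miR-1 and miR-184, and 6 of 67 in St Hubert, between miR-993 and miR-279d. It alone made up 53.5% of the reads of the 7 members listed for Zonza and 58.8% of those of the 5 listed for St Hubert.

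miR-2766 had 4035 reads in Zonza (0.384%, 0.373% to 0.396%) and 1628 in St Hubert (0.436%, 0.415% to 0.458%). miR-2756 had 3516 reads in Zonza (0.335%, 0.324% to 0.346%) and 1406 in St Hubert (0.377%, 0.357% to 0.397%). They ranked next to each other in both libraries, at 12 and 13 in Zonza, where miR-279d stood above and miR-279a below the pair, and at 13 and 14 in St Hubert, where Par-013 stood above and miR-281 below. Their counts nevertheless differed beyond counting error within each library, with miR-2766 at 1.15 times miR-2756 in Zonza (exact 95% interval 1.10 to 1.20) and 1.16 times in St Hubert (1.08 to 1.24).

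miR-2767 had 1224 reads in Zonza (0.117%, 0.110% to 0.123%) and 51 in St Hubert (0.0137%, 0.0104% to 0.0180%). It ranked 19 of 81 in Zonza, between miR-278 and miR-34, and 54 of 67 in St Hubert, between Par-341 and B-0319. miR-2763 had 137 reads in Zonza (0.0130%, 0.0110% to 0.0154%) and 27 in St Hubert (0.00723%, 0.00497% to 0.0105%). It ranked 40 in Zonza, between Par-247 and miR-6307, and 63 in St Hubert, between miR-965 and Par-240. These are the members for which the libraries placed the miRNA most differently.

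miR-2765 and miR-2796 are listed for Zonza only, with 42 reads (0.00400%, 0.00296% to 0.00541%) and 21 reads (0.00200%, 0.00131% to 0.00306%). miR-2765 tied with miR-13b at rank 64 and stood above miR-745, and miR-2796 ranked 70 between miR-124 and miR-375. The lowest total in the St Hubert counts is 19 reads, against 5 in Zonza, so an unlisted miRNA is not taken to be at 0. The study counted a miRNA as expressed in the ovary only above a cut-off on dominant arm reads, set lower for St Hubert than for Zonza. In Zonza, both miR-2765 and miR-2796 fall under that cut-off. At its Zonza share, miR-2765 would have given 14.9 reads in St Hubert (exact 95% interval 10.8 to 20.2) and miR-2796 7.47 reads (4.62 to 11.4). Both values lie under the lowest listed total, and a difference between the libraries was not detectable for either. With miR-989 left out of the totals the expectation for miR-2765 was 20.4 reads, just above that lowest total, and for miR-2796 10.2 reads.

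**Figure D1:**
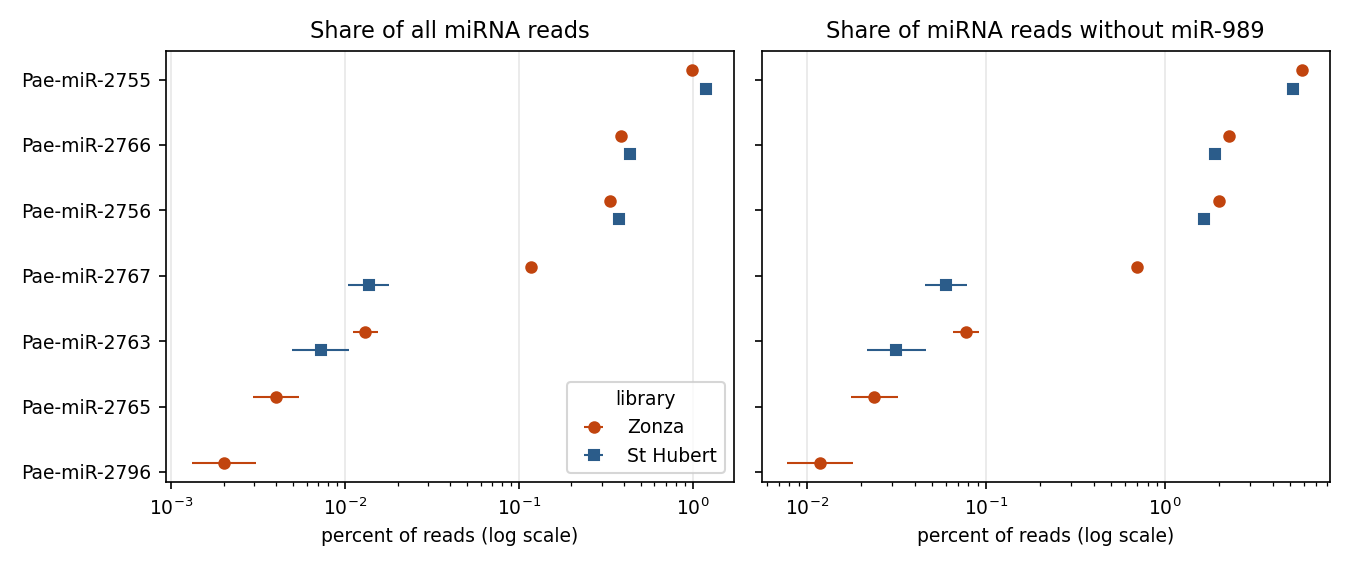
Share of miRNA reads of each member of the miR-2700 series in the Zonza (circles) and St Hubert (squares) libraries, as a percentage on a log axis, with all miRNA reads as the total on the left, miRNA reads without miR-989 on the right, and lines for 95% Wilson intervals. miR-2767 is 0.117% in Zonza and 0.0137% in St Hubert, and the libraries swap order for miR-2755, miR-2756 and miR-2766 between the panels.

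The total to which reads were scaled mattered, because miR-989, known for its part in border cell migration in the fly ovary, took 83.2% of the miRNA reads in Zonza and 77.2% in St Hubert. The series as listed, with 7 members in Zonza and 5 in St Hubert, held 1.84% of all miRNA reads in Zonza (1.81% to 1.86%). In St Hubert it held 2.02% (1.98% to 2.07%), a ratio, Zonza over St Hubert, of 0.908 (exact 95% interval 0.884 to 0.933). miR-2765 and miR-2796, listed for Zonza only, gave 0.218% and 0.109% of the reads of the series there. Without miR-989 in the totals, the series held 11.0% in Zonza (10.8% to 11.1%) and 8.85% in St Hubert (8.66% to 9.04%), a ratio of 1.24 (1.21 to 1.27). The direction of the summed difference thus turned with the total, since leaving out miR-989 multiplies every ratio of Zonza over St Hubert by 1.36. The share of miR-1, a muscle miRNA, also differed between the libraries, at 2.56% in Zonza and 5.66% in St Hubert, and its part in these differences was not tested.

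The ratio of shares, Zonza over St Hubert, could be formed for the 58 miRNAs listed in both libraries, 5 of them members. miR-2767 had the largest ratio of all 58, at 8.54 (exact 95% interval 6.45 to 11.5). The lowest was that of Par-222, at 0.0874 (0.0450 to 0.159), with 14 reads in Zonza and 57 in St Hubert. On the log2 scale Par-222 lay further from 0, at −3.52, than miR-2767, at 3.09. In the order from the top, miR-2767 came first. Next came miR-252 at 2.15 (1.32 to 3.71), with 115 reads in Zonza and 19 in St Hubert. After it came miR-2763 at 1.80 (1.19 to 2.84), whose interval reaches past 2. miR-252 and Par-129, at 1.39 (1.16 to 1.67), were the miRNAs outside the series whose ratio was closest to that of miR-2767, and the interval of neither overlaps that of miR-2767.

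The other members had ratios a little under 1 when all miRNA reads were the total, at 0.889 for miR-2756 (0.836 to 0.947), 0.881 for miR-2766 (0.832 to 0.934) and 0.826 for miR-2755 (0.797 to 0.856). The median over all 58 miRNAs was 0.772, which on the log2 scale is −0.37, so these members stood above the middle of the library, at ranks 18, 19 and 24 of 58. Without miR-989 in the totals the median was 1.04, and the ratios became 1.21 for miR-2756, 1.20 for miR-2766 and 1.13 for miR-2755. Their direction therefore depends on the scaling and is not given as a difference between the libraries.

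Past 2-fold higher in Zonza, 1 of the 5 members was found, miR-2767, against a background of 3.45% of the 58 miRNAs (2 miRNAs). Past 2-fold lower in Zonza there were 0 of the 5 members, against 20.7% of the 58 (12 miRNAs). Par-340 and Par-341 are both among the 12, with the same 5′ product and the same counts, 70 in Zonza and 52 in St Hubert. The study groups them because they share reads, while they are counted separately here. The listed totals start at 5 reads in Zonza and 19 in St Hubert, so scarce miRNAs that were lower in St Hubert are left out of the 58 while those lower in Zonza can stay in. Among the 54 miRNAs whose share in both libraries reached that of 19 St Hubert reads, a limit chosen after seeing the data, 3.70% were past 2-fold higher and 18.5% past 2-fold lower, with the members as before. Without miR-989 in the totals, miR-2763 joined miR-2767 above 2-fold, at a ratio of 2.46 (1.62 to 3.87), and the background was 5.26% of 57 miRNAs above and 3.51% below. Under that scaling miR-2767 had a ratio of 11.6 (8.79 to 15.7). It ranked first under all 5 ways of counting and scaling, and miR-2763 ranked 3 in all but dominant arm reads, where it ranked 2. With a threshold of 4-fold, 1 member (miR-2767) was higher and 0 were lower in Zonza, against 1.72% of the 58 miRNAs in each direction. That background is miR-2767 itself above and Par-222 below. With 1.5-fold, 2 members were higher and 0 lower, against 5.17% higher and 39.7% lower. These are counts past a fold in 1 library per population and carry no p-value.

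**Figure D2:**
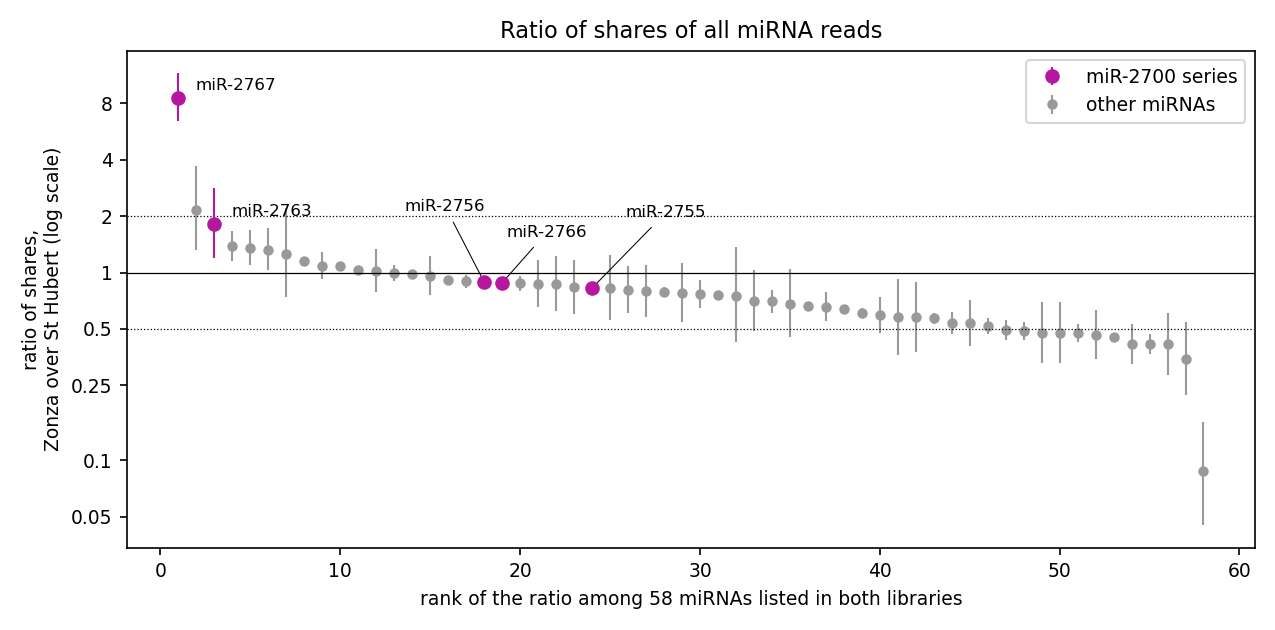
Ratio of shares of all miRNA reads, Zonza over St Hubert, on a log axis for the 58 miRNAs listed in both libraries, ranked from the highest to the lowest, with members of the miR-2700 series in magenta, other miRNAs in grey and lines for exact 95% intervals. miR-2767 stands apart at the top at 8.54, as Par-222, not a member, does at the bottom at 0.0874. miR-2763 has rank 3 at 1.80, and the other 3 members lie at ranks 18, 19 and 24.

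A comparison of members with each other needs no library total. Within the series, miR-2766 and miR-2756 kept the same proportion in both libraries within counting error, with a ratio of ratios, Zonza over St Hubert, of 0.991 (exact conditional 95% interval 0.910 to 1.08). miR-2755 stood at 2.56 times miR-2766 in Zonza and 2.73 times in St Hubert, a ratio of ratios of 0.937 (0.875 to 1.00), and at 2.93 times miR-2756 in Zonza and 3.16 times in St Hubert, a ratio of ratios of 0.929 (0.864 to 0.998). The proportions among the 3 abundant members thus differed little between the libraries, and of these intervals only the last leaves out 1.

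miR-2767 did not keep these proportions. It stood at 0.348 times miR-2756 in Zonza and 0.0363 times in St Hubert, a ratio of ratios of 9.60 (7.19 to 13.0). Against miR-2766 the ratio of ratios was 9.68 (7.27 to 13.2), and against miR-2755 it was 10.3 (7.79 to 14.0). miR-2763 stood at 0.0390 times miR-2756 in Zonza and 0.0192 times in St Hubert, a ratio of ratios of 2.03 (1.33 to 3.20). miR-2767 also exceeded miR-2763 more in Zonza, at 8.93 times, than in St Hubert, at 1.89 times, with a ratio of ratios of 4.73 (2.75 to 7.96). In these measures, which leave miR-989 out altogether, miR-2767 was the member by which the libraries differed most. Largely as a result, miR-2755, miR-2756 and miR-2766 together made up 92.6% of the reads of the series in Zonza and 99.0% in St Hubert. The reads of the series include miR-2765 and miR-2796 in Zonza only.

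**Figure D3:**
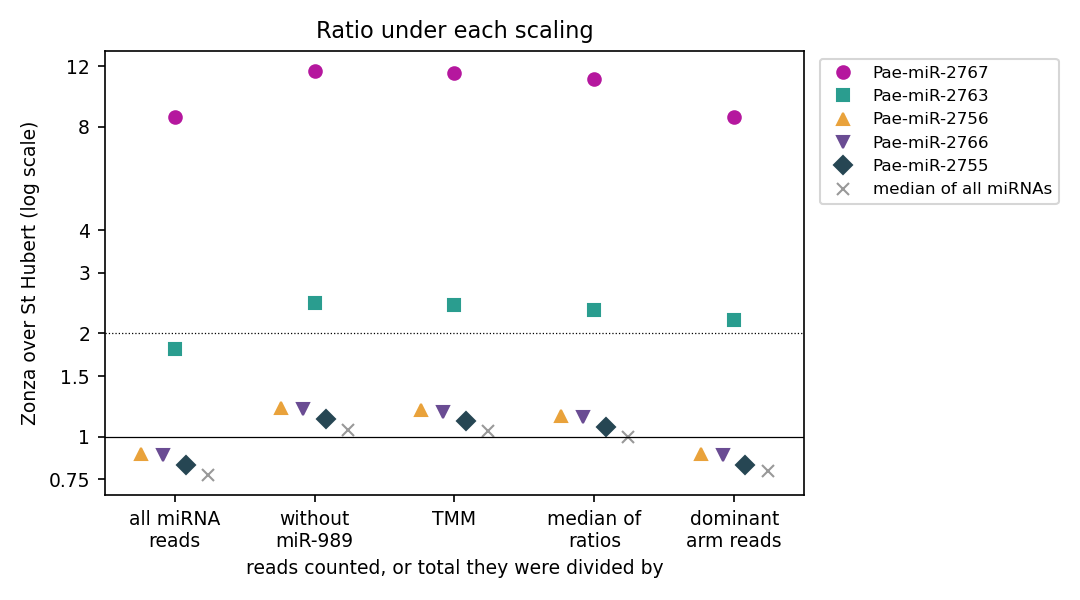
Ratio of Zonza over St Hubert on a log axis for the 5 members listed in both libraries and for the median of all miRNAs compared, under each way of counting or scaling the reads, with symbols spread sideways for legibility. miR-2767 lies between 8.52 and 11.6 and miR-2763 between 1.80 and 2.46, while miR-2755, miR-2756 and miR-2766 lie on either side of 1 according to the scaling.

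Through its seed, miR-2755 was 1 of 3 sources of products that start with a base followed by ACCCUGU. The 3′ arm of miR-2755 gave 10312 reads in Zonza and 4437 in St Hubert. The 5′ arm of miR-993 gave 7186 and the 5′ arm of miR-10a 144 reads in Zonza, against 4000 and 76 in St Hubert. miR-2755 was thus 58.5% of the reads with this seed in Zonza and 52.1% in St Hubert. Reads with this seed were 1.68% of all miRNA reads in Zonza and 2.28% in St Hubert, and of the miRNA reads without miR-989 they were 10.0% in Zonza and 9.98% in St Hubert. Only 21.9% of the arm reads of miR-10a in Zonza and 16.1% in St Hubert came from the arm that carries the seed, whereas for miR-993 it was 86.6% in Zonza and 86.7% in St Hubert.

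Reads of the members came almost wholly from 1 arm, except in miR-2763. That contrast is partly set by selection. miR-2763 is the only member newly found in the study, which dropped newly found candidates with reads on only 1 arm. It could therefore be listed only with reads on both arms, a condition that the other members did not have to meet. miR-2755 had 0 reads on its 5′ arm against 10312 on its 3′ arm in Zonza, which allows a share of up to 0.0291% (here and for the other counts of 0, the share that 3 reads would make), and 3 against 4437 in St Hubert (0.0676%, 0.0230% to 0.198%). For miR-2756 the minor arm was the 3′ arm, with 3 of 3516 reads in Zonza and 1 of 1406 in St Hubert. For miR-2766 it was the 5′ arm, with 8 of 4035 reads in Zonza and 7 of 1628 in St Hubert, and the members so far thus left under 1% of their reads on the minor arm. All 1224 reads of miR-2767 in Zonza came from the 5′ arm, which allows up to 0.245% on the other, and so did all 51 in St Hubert, which allows up to 5.88%. In Zonza, all 42 reads of miR-2765 were from the 5′ arm, which allows up to 7.14% on the other, and all 21 of miR-2796 from the 3′ arm, which allows up to 14.3%.

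In miR-2763 the 5′ arm gave 8 of 137 reads in Zonza (5.84%, 2.99% to 11.1%) and 6 of 27 in St Hubert (22.2%, 10.6% to 40.8%). In a two-sided Fisher's exact test on the arms of all 58 miRNAs listed in both libraries, this had p = 0.0136, Benjamini-Hochberg adjusted 0.144. For miR-2755 the values in the same exact test were p = 0.0273 and adjusted 0.198. No member passed at an adjusted p under 0.05, against 5.17% of the 58 miRNAs (3 miRNAs), and 2 of the 8 miRNAs with an unadjusted p under 0.05 were members. Such a p speaks of the reads in this pair of libraries and not of the populations. miR-2767, like some miRNAs outside the series, had 0 reads on the minor arm in both libraries, so its test could not pass. miR-2756, with 3 such reads in Zonza and 1 in St Hubert, left its test little to compare. Fewer than 1% of reads lay on the minor arm in 6 of 7 members in Zonza and 4 of 5 in St Hubert, while over all listed miRNAs this held for 45.7% in Zonza and 40.3% in St Hubert. These are observed shares. miR-2765 and miR-2796 in Zonza and miR-2767 in St Hubert, like some other scarce miRNAs, had too few reads to place the share under 1%. The background over all listed miRNAs was not matched to the members for abundance. Outside the series, abundant miRNAs such as miR-989, miR-1, miR-184 and miR-279d were also under 1% in both libraries. Others, such as miR-993, miR-279a and miR-278, were not. Use of 1 arm is thus not particular to the series.

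**Figure D4:**
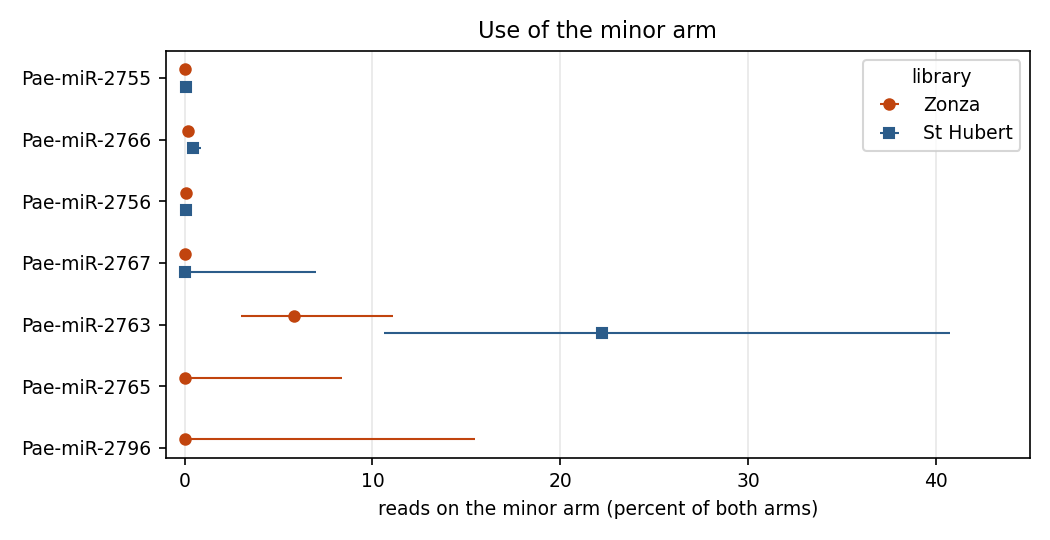
Reads on the minor arm of each member, as a percentage of the reads on both arms, in the Zonza (circles) and St Hubert (squares) libraries, with 95% Wilson intervals. miR-2763 is the only member above 1%, at 5.84% in Zonza and 22.2% in St Hubert, and the long lines at 0 reflect low counts. It is also the only member that needed reads on both arms to be listed.

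Because miR-2763 had reads on both arms, its products were compared with the aligned stretches of other Lepidoptera in the alignment that accompanies the study. For those species the stretches are not measured products, as reads were counted here in P. aegeria only. Lower case marks identity with P. aegeria and capitals mark a differing base. The stretches aligned to the 3′ product were as follows.
Pararge aegeria: auauuaugcucauuacuuuggau
Danaus plexippus: auauuaugcucauuacuuuggau
Polygonia c-album: auauuaugcucauuacuuuggau
Manduca sexta: auauuaugcucauuacuuuggau
Heliconius melpomene: auauuaugcucauuacuuuggaG
Bombyx mori: auauuaugcucauuUcuuuggau
The differences were U23G in H. melpomene and A15U in B. mori, with the base of P. aegeria first and positions counted from the 5′ end of the product. Neither lies in the seed, so the bases aligned to the seed of the arm abundant in P. aegeria were the same in all 6 species. The stretches aligned to the 5′ product, from the arm with few reads in P. aegeria, differed more.
Pararge aegeria: uccaaaguagugggcguaauuuau
Danaus plexippus: uccaaaguaguggAcguaauuuau
Manduca sexta: uccaaaguagugAAcguaauuuau
Polygonia c-album: CccaaaguagugAAcguaauuuau
Heliconius melpomene: CccaaaguagugAAcguaauuuau
Bombyx mori: uGcaaaguagugAAcAuaauuuau
All 5 other species carried G14A, and all but D. plexippus also carried G13A. B. mori alone differed within the seed, by C2G, and at G16A, while H. melpomene and P. c-album shared U1C ahead of the seed.

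The hairpins of the members, as listed for Zonza, are 109 to 113 bases long. The hairpins of miR-2767 and miR-2763, which differed most between the libraries, are shown with both products in capitals.
miR-2767: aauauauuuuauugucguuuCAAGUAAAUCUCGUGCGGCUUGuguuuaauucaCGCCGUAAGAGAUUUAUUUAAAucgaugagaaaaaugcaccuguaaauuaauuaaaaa
miR-2763: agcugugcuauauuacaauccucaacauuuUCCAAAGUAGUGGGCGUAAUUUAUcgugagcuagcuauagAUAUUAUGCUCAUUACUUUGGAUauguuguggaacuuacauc
The predicted minimum free energy of folding was −30.2 kcal/mol for miR-2767 and −41.1 for miR-2763. In the predicted fold of miR-2763, 22 of the 23 bases of its 3′ product paired with its 5′ product, against a median of 17 over the 85 precursors in which both products could be placed. In miR-2767 it was 18 of 22 bases.

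Over the 7 members the median free energy of the whole deposited precursor was −42.3 kcal/mol, from −49.4 in miR-2796 to −30.2 in miR-2767. Over all 90 precursors it was −38.6. miR-2796 and miR-2756 (−48.0) ranked 11 and 12 of 90 from the most stable, while miR-2755 (−33.4), the most abundant member, ranked 69 and miR-2767 ranked 75. The order of the members changed when only the stretch from one product to the other was folded. The G + C content ran from 28.8% in miR-2767 to 58.9% in miR-2756. Of the abundant products, 2 of 7 in the series began with U (miR-2765 and miR-2766), while 53.0% of the other 83 did. In length they ran from 20 to 23 bases around a median of 22, which was also the median of all 90. No test was made on these features.

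**Figure D5:**
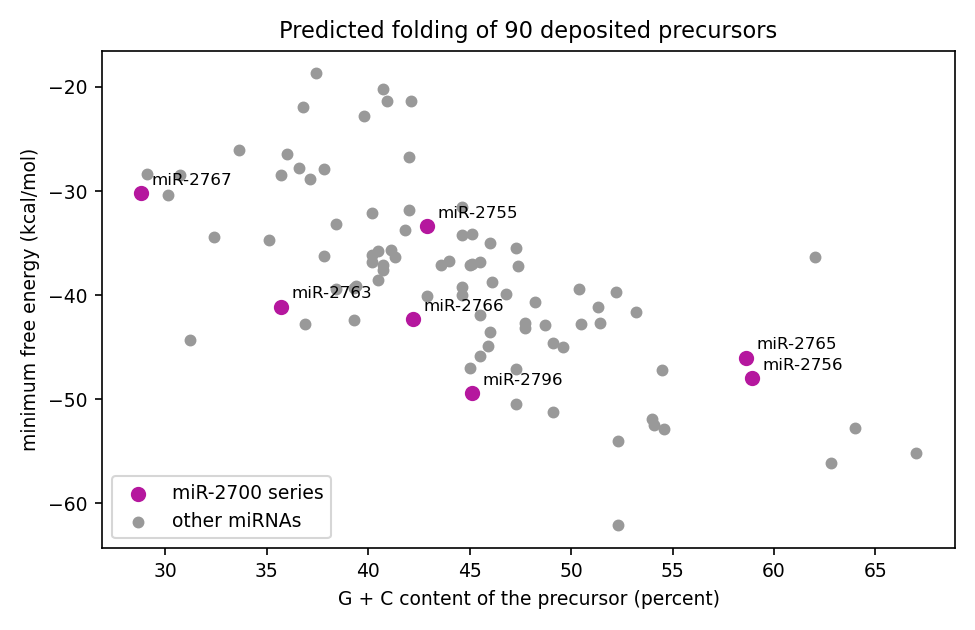
Predicted minimum free energy of folding in kcal/mol against the G + C content in percent for the 90 deposited precursors, with the 7 members of the miR-2700 series in magenta and other miRNAs in grey. The members run from −49.4 kcal/mol in miR-2796 to −30.2 in miR-2767, inside the range of the others, −62.1 to −18.7.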

How the data were processed

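Small RNA was sequenced from ovaries of the Zonza and St Hubert populations, 1 library each. For each precursor the authors deposited raw counts of reads, in total and by arm. The counts come from miRDeep2 and were checked against its quantifier.pl script, the submitters' processing notes name Bowtie, and a genome build is not given in the sources used here. Depth was 1049925 miRNA reads in Zonza and 373413 in St Hubert. Counts were divided by these totals, as in the study, or by totals without miR-989. Shares have 95% Wilson intervals and ratios exact conditional intervals, which cover counting error only, as PCR-amplified reads are not independent molecules. Arms were compared by two-sided Fisher's exact tests, Benjamini-Hochberg adjusted over 58 miRNAs. With 1 library per population, no test between populations was made. Alternative scalings were TMM (edgeR 4.0.16) and median of ratios (DESeq2 1.42.0) in R 4.3.3, and dominant arm reads. The other alternatives were thresholds of 4-fold and 1.5-fold, a filter at 50 reads, and folding of the stretch between the products. Hairpins were folded with ViennaRNA 2.7.2. Python 3.11.15 with scipy 1.17.1 was used, and the procedures were tested on simulated data.

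The miRNAs named are all members, the miRNAs next to them in rank, those with a member's seed on their dominant arm, miR-989, and the 2 with the ratio closest to miR-2767. After values were seen, miR-10a, whose seed lies on the minor arm, and Par-222, which has the lowest ratio, were named. miR-1 was also used as a muscle marker after values were seen. Par-340 was named because its 5′ product and counts are those of Par-341. Members and comparisons were chosen with earlier results of these data known. St Hubert miRNAs that its counts do not list were given no value, and mRNA data were not used here. Genome positions of the hairpins were not analysed here.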

Additional observations from a re-analysis of the deposited data

How the results depend on the processing

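The summed share of the members listed, 7 in Zonza and 5 in St Hubert, was 1.84% in Zonza and 2.02% in St Hubert. It was 11.0% and 8.85% without miR-989 in the totals, and 1.84% and 2.03% in dominant arm reads. The ratio of miR-2767 was 11.6 without miR-989, 11.4 with TMM factors, 11.1 with median-of-ratios size factors and 8.52 in dominant arm reads. Members above 2-fold numbered 2, miR-2767 and miR-2763, without miR-989, with either set of factors and in dominant arm reads, against 1 with all miRNA reads. Above 1.5-fold there were 2 and above 4-fold 1. Over all miRNAs, 3 were above 2-fold without miR-989, against 2. At 4-fold 1 was above and 1 below, and at 1.5-fold 3 were above and 23 below. Below 2-fold there were 12, and 2 without miR-989 or with either set of factors. The filter at 50 reads removed no miRNA and changed nothing. Folding only the stretch from one product to the other gave medians of −24.5 kcal/mol for the series and −22.7 for the 85 precursors in which both products could be placed. The members then ran from −29.1 in miR-2763 to −16.9 in miR-2755, with miR-2796 at −24.5 and miR-2767 at −22.8. Their order therefore depends on the stretch that is folded. With a share of at least 19 St Hubert reads required in both libraries, added after seeing the data, 54 miRNAs were left, of which 2 were above 2-fold and 10 below, and the members' counts did not move. No paired analysis was possible because each population has 1 library.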
